A study of Mus musculus with 10 samples.

Results

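The genes described here are 41 type I interferon response genes, a list of transcripts that interferon alpha and beta are known to induce in most nucleated cells. They were found by their symbols among the probe sets that carry exactly 1 gene symbol. All 41 were measured, each by 1 probe set, out of 19937 genes in the table. They were measured in splenic B cells, sorted as B220+CD22+ cells from mice of CBAxC57BL/6J background, on 10 Affymetrix Mouse Gene 1.0 ST arrays. The 3 wild-type arrays came from mice without the transgene. The 3 Sca1-Bcl6(floxed) arrays, called floxed, came from mice with a transgene that holds mouse Bcl6, joined through an IRES to eGFP, flanked by loxP in a vector of the Ly6a (Sca1) gene. The 4 Sca1-Bcl6(delta) arrays, called delta, came from floxed mice bred to mb1-Cre, a Cre expressed from the Cd79a (mb1) locus in the B lineage. Both transgenic groups thus come from mice with the Sca1-Bcl6 construct, and only the delta group also carries mb1-Cre. By this design Cre is meant to remove the loxP-flanked Bcl6 and eGFP in B cells of the delta mice. How far it was removed in the sorted cells was not tested here. The study made 2 independent transgenic lines, and the labels do not say which line, animal, sex or age stands behind an array. A p-value given here thus rests on the spread between arrays of a group, which may be technical. In bulk RNA of sorted cells, fewer cells with a transcript and less transcript per cell cannot be told apart.

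The median RMA intensity of an array lay between 139 and 145, and the B cell markers Cd79a, Cd79b, Ms4a1 and Cd22 had log2 levels of 12.82 to 13.86 on every array. Of these, Cd79a, the locus of mb1-Cre, fell by 0.48 in delta against wild-type arrays (adjusted p = 0.0427), and Cd22 differed by 0.20 in floxed arrays, all of which lay above wild-type (adjusted p = 0.293). The Bcl6 probe set had a mean log2 level of 10.05 in wild-type, 9.88 in floxed and 9.70 in delta arrays, and Bcl6 itself was not called in any comparison. Levels of the Y-linked genes and Xist gave a male pattern in 0 of 3 wild-type, all 3 floxed and 1 of 4 delta arrays, namely delta 1. Between floxed and wild-type arrays, sex and genotype cannot be told apart, a limit on every such value given here.

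Type I interferons bind a receptor made of Ifnar1 and Ifnar2, whose kinases Jak1 and Tyk2 phosphorylate Stat2. Stat2 and Irf9 act as subunits of the complex ISGF3, which binds interferon-stimulated response elements in the promoters of the genes described here. Irf7 extends the response by inducing further interferon genes, Usp18 damps it at the receptor, and most other members act on viral RNA, nucleotides, membranes or proteins. Bcl6, the protein encoded by the transgene, is a transcriptional repressor of germinal centre B cells whose recognition sequence resembles that of the STAT proteins.

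Promoters of 4 members are printed because their values contrast within the list. Ifit1 and Ifit3 had lower means in both transgenic groups, whereas in floxed arrays Rsad2 had a higher mean than in wild-type arrays and its direct neighbour Cmpk2 a lower one. Each sequence holds the 250 bases before the transcription start in RefSeq (build GRCm38.p6), 5' to 3' on the strand of the gene. Capitals mark the interferon-stimulated response element core, searched as GAAA followed after any 2 bases by a further GAAA, on both strands. The sequences come from chr19:34640639-34640888 (plus strand) for Ifit1, chr19:34583279-34583528 (plus strand) for Ifit3, chr12:26456453-26456702 (minus strand) for Rsad2 and chr12:26468965-26469214 (plus strand) for Cmpk2.
Ifit1: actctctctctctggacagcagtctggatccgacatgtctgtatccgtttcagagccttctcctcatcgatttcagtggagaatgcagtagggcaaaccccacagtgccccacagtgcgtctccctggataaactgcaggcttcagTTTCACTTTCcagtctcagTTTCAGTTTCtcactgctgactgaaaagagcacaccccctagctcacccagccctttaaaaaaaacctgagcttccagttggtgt
Ifit3: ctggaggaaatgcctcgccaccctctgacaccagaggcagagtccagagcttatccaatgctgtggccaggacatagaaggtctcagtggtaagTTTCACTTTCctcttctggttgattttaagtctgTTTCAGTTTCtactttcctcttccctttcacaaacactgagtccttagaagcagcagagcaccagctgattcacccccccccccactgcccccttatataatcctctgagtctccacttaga
Rsad2: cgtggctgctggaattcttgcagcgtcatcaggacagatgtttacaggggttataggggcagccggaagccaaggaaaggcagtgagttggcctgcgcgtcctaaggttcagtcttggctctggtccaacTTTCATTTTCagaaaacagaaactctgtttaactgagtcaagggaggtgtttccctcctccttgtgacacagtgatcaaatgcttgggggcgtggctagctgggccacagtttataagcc
Cmpk2: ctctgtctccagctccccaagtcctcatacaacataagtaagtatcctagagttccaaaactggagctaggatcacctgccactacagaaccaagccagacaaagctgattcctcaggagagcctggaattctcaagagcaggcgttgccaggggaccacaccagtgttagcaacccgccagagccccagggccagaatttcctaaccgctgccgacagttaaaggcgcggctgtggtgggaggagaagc

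Ifit1 held 2 matches, which begin at -104 and -85 from the start, and Ifit3 held 2, at -156 and -122. Rsad2 held 1 match, at -120, and the Cmpk2 window held none. RefSeq promoters, taken from 250 bases before to 50 after the start, were given for 32 of the 41 members in 42 promoters. The core was present in 13 of these 42 promoters, 31% against 3.44% of all 32851 promoters. The 12 genes with a match were Bst2, Eif2ak2, Ifih1, Ifit1, Ifit3, Ifitm3, Oas1a, Oas3, Rsad2, Stat2, Trim21 and Trim30a. Genes with the core thus included ones with lower floxed means, such as Eif2ak2, and Rsad2 with a higher one. The general STAT motif TTCNNNGAA, which reads the same on both strands, was present in 9 of 42 member promoters (21.4%, against 8.3% of all). Its narrower form TTCCTNGAA, the core of the BCL6 site, was present in 3 of 42 (7.14%, against 1.59% of all), those of Adar, Bst2 and Ifit2. Every match of this narrower form is also one of TTCNNNGAA. Mx1, Mx2, Usp18, Rtp4, Zbp1, Oas2, Dhx58, Parp9 and Parp14 had no promoter in the table used.

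The mean over the 41 genes was lower in both transgenic groups than in wild-type arrays, and lowest in the delta group. This mean log2 level was 8.97, 8.93 and 8.89 in wild-type arrays 1 to 3. It was 8.78, 8.83 and 8.84 in floxed arrays, and 8.64, 8.87, 8.66 and 8.65 in delta arrays. Every floxed and every delta array lay below every wild-type array, while floxed and delta arrays overlapped through delta 2, the highest of the 7 transgenic arrays. The wild-type group had a mean of 8.93 ± 0.04 (SD, n = 3). The floxed group had 8.82 ± 0.03 (SD, n = 3), and the delta group 8.70 ± 0.11 (SD, n = 4). The mean over all 19937 genes stayed within 0.03 of its wild-type value on each of these arrays.

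**Figure D1:**
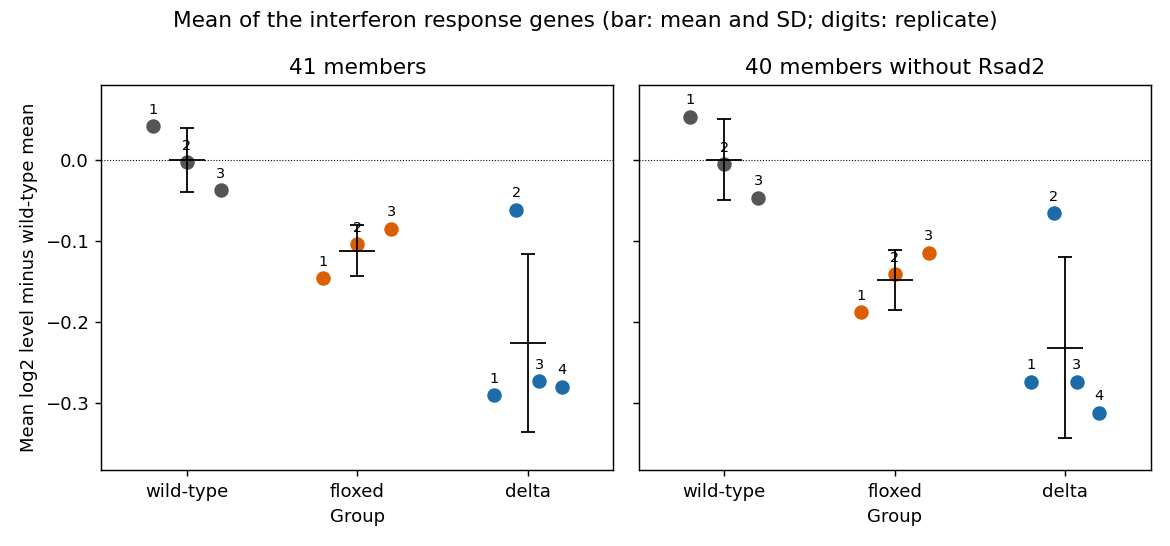
Mean log2 level of the interferon response genes on each array, minus the wild-type mean, for all 41 genes (left) and for 40 genes without Rsad2 (right). Points are arrays with their replicate number, and bars give the group mean and SD; delta 2 lies near the wild-type arrays while delta 1, 3 and 4 lie together at -0.27 to -0.29 in the left panel.

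Against wild-type, the mean over the list differed by -0.11 in floxed arrays and by -0.23 in delta arrays (log2). Over the 40 genes without Rsad2 the floxed difference was -0.15 and the delta difference -0.23. The median member differed by -0.09 in floxed and -0.15 in delta arrays, beside medians of -0.02 and -0.01 over all genes. Delta minus floxed, the mean differed by -0.11 and, without Rsad2, by -0.08, and the median member by -0.07. With the sex pattern as a covariate, the floxed difference was -0.026 and the delta difference -0.20. Within the groups that pattern varies only through delta 1, so each value with this covariate rests on 1 array: the delta differences from wild-type equal those without delta 1, and the floxed values are shifted by delta 1 against the other delta arrays. The wild-type arrays enter both comparisons against wild-type, so the values of the transgenic groups are not independent of each other.

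No single member was called in any comparison, where called means an adjusted p under 0.05 over all genes. In floxed against wild-type arrays 0 of 41 members were called, beside 0.552% of all genes. In delta against wild-type arrays 0 of 41 were called, beside 0.0752%, and in delta against floxed arrays 0 of 41, beside 0.00502%. The smallest adjusted p of any member was 0.111, for Isg20 in floxed against wild-type arrays. The differences of single members in this fit are therefore values that did not pass the test.

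More members lay low than the share over all genes, at levels short of that threshold. In floxed against wild-type arrays 31 of 41 members had a difference below 0, beside 58.1% of all genes, and 14 had a lower mean with an unadjusted p under 0.05 (34.1%, against 6.63% of all genes). Only 3 members had a higher mean with such a p (7.32%, against 6.14%). In delta against wild-type arrays 34 of 41 had a difference below 0, beside 56.4% of all genes. There 16 had a lower mean with an unadjusted p under 0.05 (39%, against 4.44%), and 0 a higher one (against 3.46%). In delta against floxed arrays 30 of 41 differences were below 0, beside 47.9% of all genes, with 4 lower (9.76%, against 3.2%) and 1 higher (2.44%, against 3.22%) at an unadjusted p under 0.05. With the sex covariate, 25 of 41 floxed differences from wild-type were below 0, with 4 lower and 4 higher at such a p. In that fit 1450 of 19937 genes had such a p in either direction. For delta against wild-type arrays 34 of 41 were below 0, with 14 lower and 0 higher, beside 1392 of 19937 genes. These counts with the covariate rest on delta 1.

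In 12 members every floxed array lay below every wild-type array (29.3%, against 9.13% of all genes): Irf7, Usp18, Ifit1, Ifit2, Ifit3, Oasl1, Eif2ak2, Mx2, Cmpk2, Trim30a, Rtp4 and Xaf1. In 3 members every floxed array lay above (7.32%, against 7.6%): Rsad2, Isg20 and Zbp1. Every delta array lay below every wild-type array in 8 members (19.5%, against 5.5%): Usp18, Ifit1, Ifit2, Oasl1, Mx2, Cmpk2, Trim30a and Herc6. No member had every delta array above (against 3.75%). Between the transgenic groups 4 members lay lower in every delta array, namely Rsad2, Isg20, Zbp1 and Ifitm3 (9.76%, against 3.61%), and 1 lay higher, Trim25 (2.44%, against 3.36%). The count below wild-type was 19 for floxed and 18 for delta arrays without wild-type 3, and 18 for delta arrays without delta 2. Over all genes the share below rose as well, to 14.8% for floxed and 10% for delta arrays without wild-type 3, and to 8.05% for delta arrays without delta 2. Other omissions raised the share over all genes with little change in the members. Without wild-type 1 the delta count was 8 (against 10.8% of all genes), and without floxed 1 the floxed count was 13 (against 18%).

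**Figure D2:**
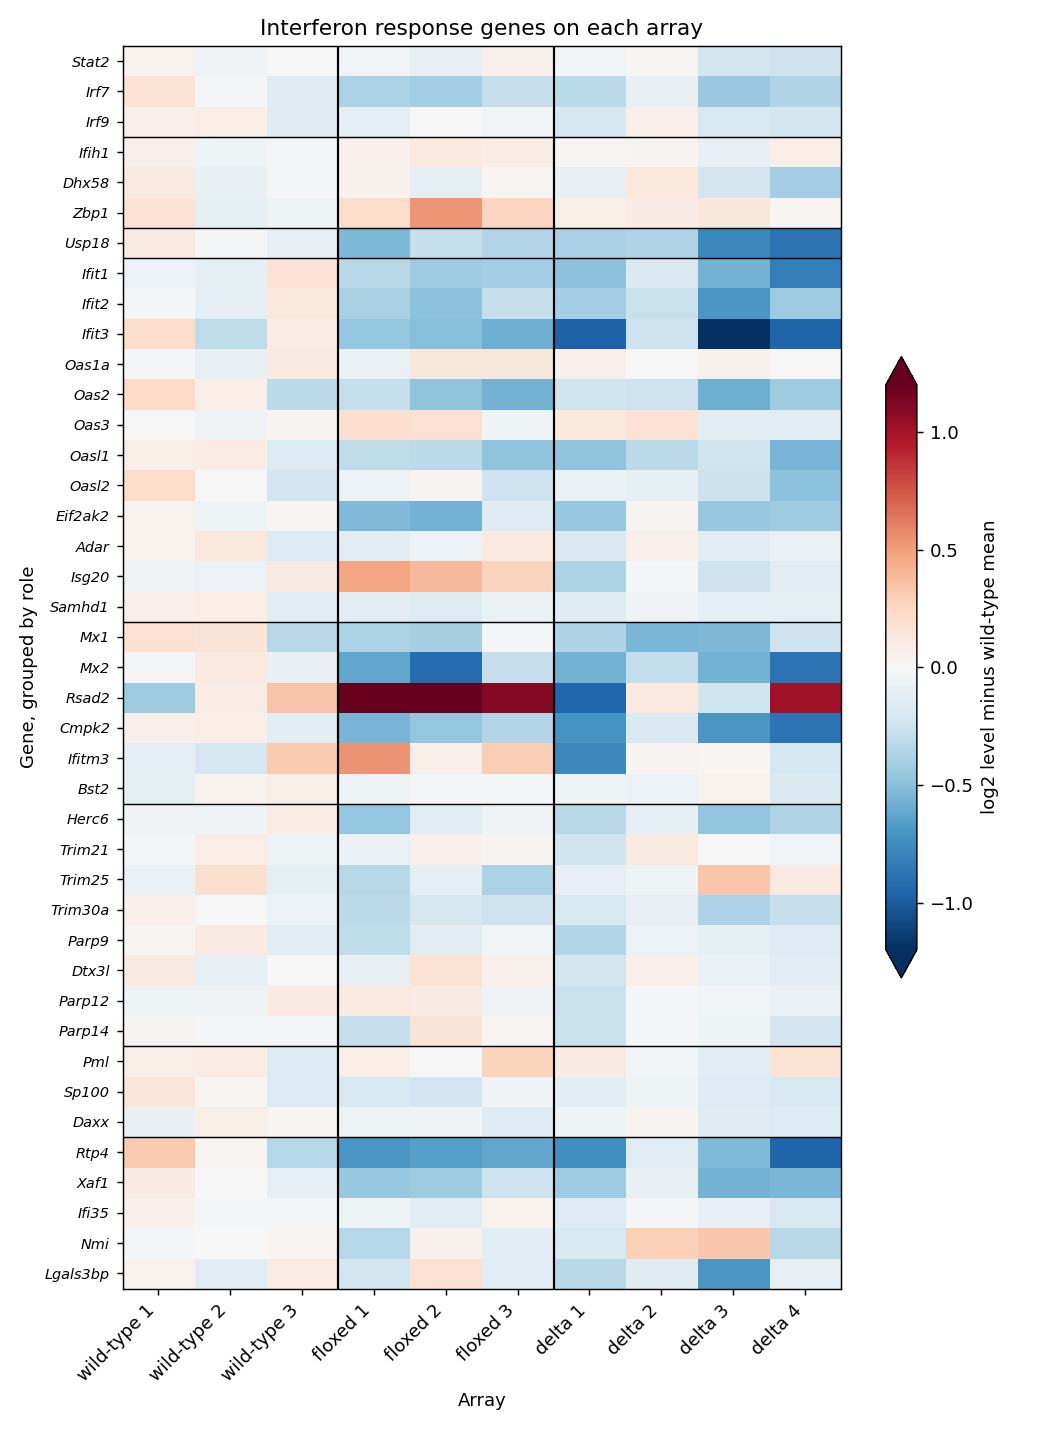
Log2 level of each of the 41 genes on each of the 10 arrays minus the gene's wild-type mean, with genes in rows grouped by role and arrays in columns; colours are clipped at 1.2 in either direction. The Ifit rows, Usp18, Mx2, Cmpk2 and Rtp4 are blue in most transgenic columns, delta 2 is paler than the other delta columns, and Rsad2 is red in the 3 floxed columns.

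Among the regulators, Irf7 was the member whose floxed arrays all lay below wild-type. Irf7, the transcription factor that induces interferon alpha genes, had log2 levels of 8.92, 8.73 and 8.61 in wild-type, 8.37, 8.35 and 8.47 in floxed, and 8.43, 8.66, 8.31 and 8.39 in delta arrays. All floxed arrays lay below all wild-type arrays, and among delta arrays only delta 2 reached the wild-type range. The log2 difference from wild-type was -0.36 in floxed (SE 0.10, adjusted p = 0.150) and -0.31 in delta arrays (SE 0.09, adjusted p = 0.381).
Stat2, the STAT subunit that is specific to type I and III interferons, had levels of 10.02, 9.93 and 9.97 in wild-type, 9.94, 9.89 and 10.02 in floxed, and 9.94, 9.98, 9.75 and 9.73 in delta arrays. Its groups overlapped, with differences of -0.02 in floxed and -0.12 in delta arrays. Irf9, the DNA-binding subunit, lay at 10.42, 10.43 and 10.21 in wild-type, 10.25, 10.36 and 10.32 in floxed, and 10.15, 10.42, 10.16 and 10.13 in delta arrays. Delta 2 was level with the highest wild-type arrays and the other 3 delta arrays lay just below the lowest one, with differences of -0.05 in floxed and -0.14 in delta arrays.

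Usp18, the protease that removes ISG15 from proteins and blocks signalling at the receptor subunit Ifnar2, was below wild-type on every transgenic array. Its log2 levels were 8.83, 8.70 and 8.62 in wild-type, 8.18, 8.43 and 8.37 in floxed, and 8.33, 8.36, 7.94 and 7.83 in delta arrays. Delta 3 and delta 4 lay lowest of all. The log2 difference from wild-type was -0.60 in delta (SE 0.13, 1.52-fold lower, adjusted p = 0.167) and -0.39 in floxed arrays (SE 0.14, adjusted p = 0.249), and with the sex covariate the floxed value was -0.68.

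The 3 Ifit genes, which encode tetratricopeptide proteins that bind viral RNA or block its translation, lay low in both transgenic groups. Ifit3 had the largest difference of the list in delta arrays. Its log2 levels were 9.28, 8.76 and 9.16 in wild-type, 8.60, 8.55 and 8.48 in floxed, and 8.10, 8.81, 7.80 and 8.10 in delta arrays. All floxed arrays and 3 of 4 delta arrays lay below wild-type, with delta 2 inside its range. The log2 difference was -0.86 in delta (SE 0.20, 1.82-fold lower, adjusted p = 0.186) and -0.52 in floxed arrays (SE 0.21, adjusted p = 0.330). Without delta 2, the highest delta array of Ifit3, the delta difference was -1.07, with an adjusted p = 0.0246. Over all alternatives this adjusted p ran up to 0.576.
Ifit1 had levels of 6.95, 6.92 and 7.20 in wild-type, 6.69, 6.60 and 6.61 in floxed, and 6.54, 6.85, 6.46 and 6.21 in delta arrays. Every transgenic array lay below every wild-type array, by a narrow margin in delta 2. The difference was -0.39 in floxed (SE 0.13, adjusted p = 0.243) and -0.51 in delta arrays (SE 0.13, adjusted p = 0.233).
Ifit2 had levels of 7.58, 7.49 and 7.72 in wild-type, 7.21, 7.11 and 7.32 in floxed, and 7.19, 7.34, 6.90 and 7.18 in delta arrays. Again no transgenic array reached the wild-type range. The difference was -0.39 in floxed (SE 0.11, adjusted p = 0.140) and -0.45 in delta arrays (SE 0.10, adjusted p = 0.177). Ifit2, Ifit3 and Ifit1 lie in 1 cluster on chromosome 19, in which closely related paralogs can share probes, and such cross-hybridization was not tested.

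The oligoadenylate synthetase family split by member. These enzymes and their relatives sense double-stranded RNA, and the Oas enzymes activate RNase L. Oasl1, a relative that lacks the synthetase activity and holds back Irf7 translation, had log2 levels of 9.16, 9.19 and 8.93 in wild-type, 8.79, 8.78 and 8.61 in floxed, and 8.61, 8.77, 8.85 and 8.53 in delta arrays. No transgenic array reached the wild-type range, and the difference was -0.36 in floxed (SE 0.10, adjusted p = 0.134) and -0.40 in delta arrays (SE 0.09, adjusted p = 0.187). Oas2 differed by -0.44 in floxed and -0.38 in delta arrays, but wild-type 3 at 8.06 overlapped both groups. Oasl2, the neighbour of Oasl1 on chromosome 5, differed by -0.09 and -0.24. Oas1a, by contrast, had levels of 7.93, 7.86 and 8.05 in wild-type, 7.87, 8.08 and 8.08 in floxed, and 8.01, 7.95, 8.0 and 7.95 in delta arrays. Its groups overlapped, with differences of 0.06 in floxed and 0.03 in delta arrays, the latter at -0.01 to 0.08 over the alternatives run. Oas3 differed by 0.11 and 0.01.

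Eif2ak2, the kinase PKR that stops translation when it binds double-stranded RNA, lay at 8.86, 8.77 and 8.83 in wild-type, 8.29, 8.25 and 8.67 in floxed, and 8.37, 8.85, 8.37 and 8.40 in delta arrays. All transgenic arrays except delta 2 lay below wild-type, and the difference was -0.42 in floxed (adjusted p = 0.224) and -0.32 in delta arrays (adjusted p = 0.553). Adar, the adenosine deaminase that edits double-stranded RNA, differed by -0.03 and -0.08, and Samhd1, a hydrolase of deoxynucleotides, by -0.12 and -0.10. Over the 12 members of this role, 9 floxed and 10 delta differences were below 0, with medians of -0.24 and -0.28.

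**Figure D3:**
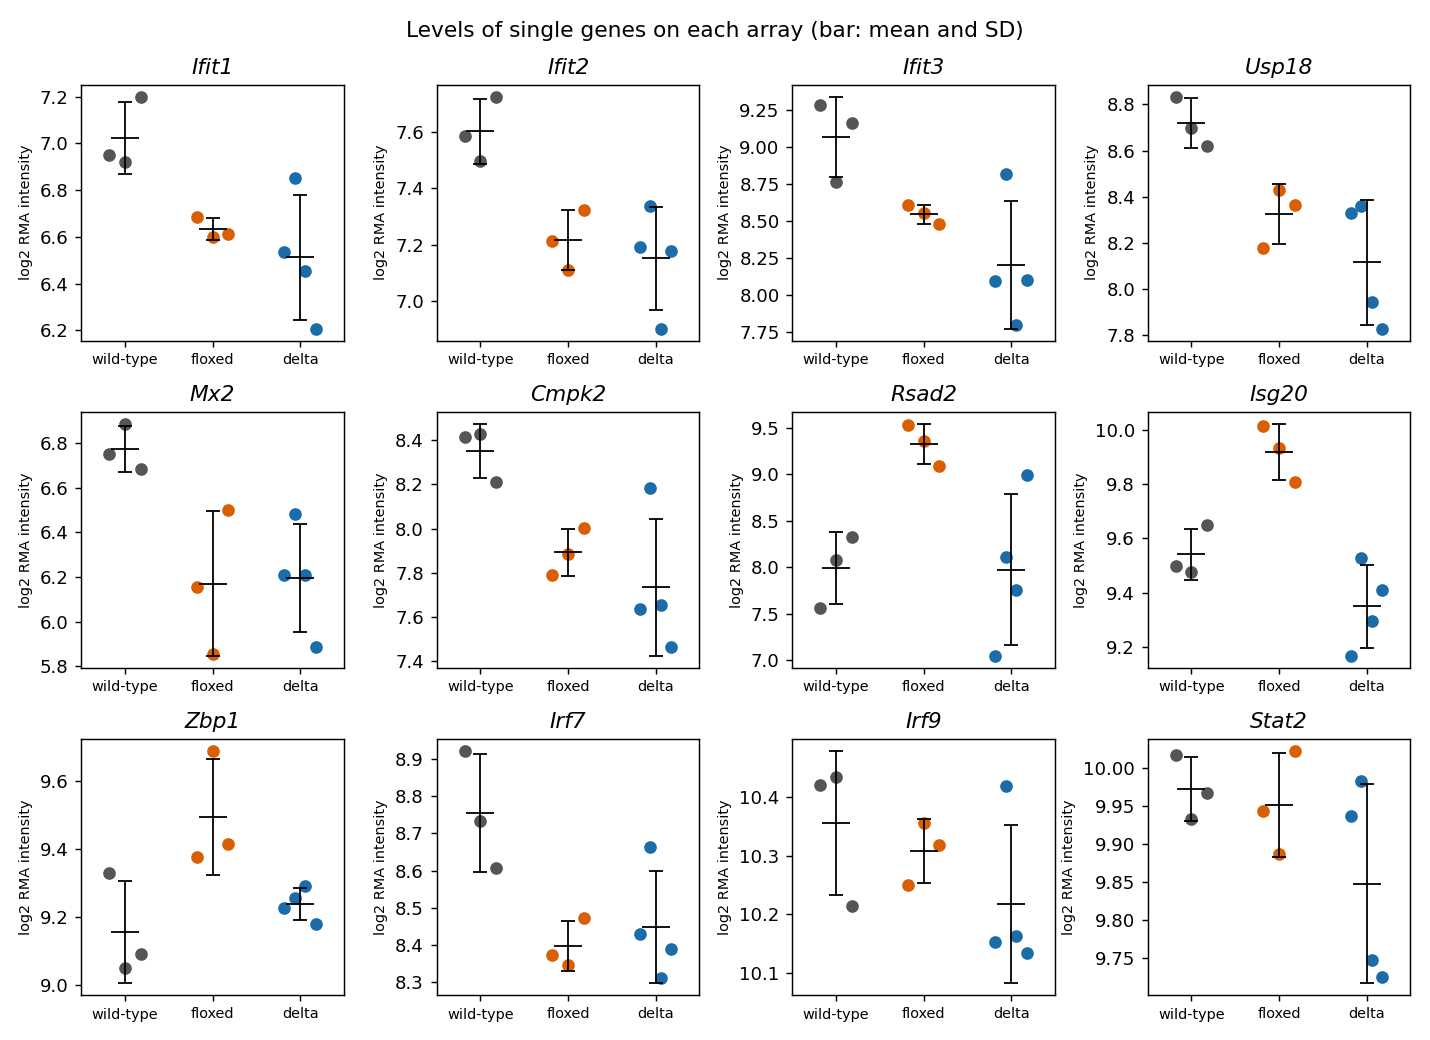
Log2 levels of 12 genes on each array, with points for arrays and bars for the group mean and SD; each gene has its own vertical scale. Ifit1, Ifit2, Usp18, Mx2 and Cmpk2 show wild-type arrays above all transgenic arrays, whereas Rsad2, Isg20 and Zbp1 are highest in floxed arrays.

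Mx2, a dynamin-like GTPase that traps viral components, was the member with the second largest lower floxed difference after Rtp4. Its log2 levels were 6.75, 6.89 and 6.68 in wild-type, 6.15, 5.85 and 6.50 in floxed, and 6.21, 6.48, 6.21 and 5.89 in delta arrays. All 7 transgenic arrays lay below all wild-type arrays. The difference was -0.61 in floxed (SE 0.16, 1.52-fold lower, adjusted p = 0.132) and -0.58 in delta arrays (SE 0.15, adjusted p = 0.289). Its relative Mx1 had levels of 7.26, 7.23 and 6.74 in wild-type arrays, so that wild-type 3 fell within the floxed range of 6.67 to 7.06, and differed by -0.27 in floxed and -0.43 in delta arrays. Mx1 is known to be disrupted in many laboratory mouse strains.

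Rsad2 went against the list in floxed arrays. It encodes viperin, a radical enzyme that makes a chain-terminating nucleotide from CTP. Its log2 levels were 7.57, 8.08 and 8.33 in wild-type, 9.53, 9.36 and 9.09 in floxed, and 7.04, 8.11, 7.75 and 8.99 in delta arrays. All floxed arrays lay above all wild-type and all delta arrays, while delta arrays ran from below wild-type (delta 1) to above it (delta 4). The difference of floxed from wild-type was 1.34 (SE 0.38, 2.53-fold higher, adjusted p = 0.150), and that of delta from floxed was -1.35 (SE 0.35, adjusted p = 0.624). Delta arrays differed from wild-type by -0.02 (SE 0.35, adjusted p = 0.996). The SD of Rsad2 was 0.81 among delta arrays (n = 4) and 0.22 among floxed arrays (n = 3). The floxed difference had an adjusted p = 0.0119 when only the wild-type and floxed arrays were fitted and 0.0340 without delta 4. Both fits leave out delta 4, the highest delta array of Rsad2. The difference stayed at 1.34, while its SE fell to 0.19 and 0.26. Delta arrays enter this comparison only through the shared spread, so these calls are no separate test. Over all alternatives the adjusted p of the floxed difference ran up to 0.361. With the sex covariate the floxed difference was 2.58, with delta minus floxed at -2.28 and delta minus wild-type at 0.30.

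Cmpk2, the mitochondrial nucleotide kinase gene beside Rsad2, did not share its pattern. The genes are neighbours on chromosome 12 with 0 protein-coding genes between them in RefSeq, and they are transcribed in opposite directions. Cmpk2 had log2 levels of 8.42, 8.43 and 8.21 in wild-type, 7.79, 7.89 and 8.0 in floxed, and 7.64, 8.18, 7.66 and 7.46 in delta arrays. Every transgenic array lay below every wild-type array, where the floxed arrays of Rsad2 lay above. The difference was -0.46 in floxed (SE 0.15, adjusted p = 0.221) and -0.62 in delta arrays (SE 0.14, 1.53-fold lower, adjusted p = 0.186). Without delta 2, the highest delta array of Cmpk2, the delta difference was -0.77 with an adjusted p = 0.0176. Over all alternatives this adjusted p ran up to 0.485.

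Isg20, a 3' to 5' exonuclease of single-stranded RNA, was the second of the 3 members with every floxed array above every wild-type array. That count is near the share over all genes (7.32%, against 7.6%). It had log2 levels of 9.50, 9.48 and 9.65 in wild-type, 10.01, 9.93 and 9.81 in floxed, and 9.17, 9.53, 9.30 and 9.41 in delta arrays. Floxed arrays lay above all others, and 3 of 4 delta arrays lay below wild-type. The difference was 0.38 for floxed minus wild-type (SE 0.10, adjusted p = 0.111), -0.57 for delta minus floxed (SE 0.09, adjusted p = 0.153) and -0.19 for delta minus wild-type (SE 0.09, adjusted p = 0.646). With the sex covariate the floxed difference was 0.62.

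Zbp1 was the third. It encodes a sensor of Z-form nucleic acid that can start necroptosis. It had levels of 9.33, 9.05 and 9.09 in wild-type, 9.38, 9.69 and 9.42 in floxed, and 9.23, 9.26, 9.29 and 9.18 in delta arrays. The floxed arrays were the highest, and the delta arrays lay inside the wild-type range. The difference was 0.34 for floxed minus wild-type (SE 0.10, adjusted p = 0.150) and 0.08 for delta minus wild-type (adjusted p = 0.897), and delta minus floxed was -0.25 (adjusted p = 0.724). The RNA helicase sensors had smaller differences. Ifih1 (MDA5) differed by 0.08 in floxed and 0.01 in delta arrays, and Dhx58 (LGP2) by -0.01 and -0.15.

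Ifitm3, which blocks viral fusion at endosomal membranes, had log2 levels of 6.46, 6.36 and 6.88 in wild-type, 7.11, 6.62 and 6.86 in floxed, and 5.79, 6.59, 6.58 and 6.35 in delta arrays. All delta arrays lay below all floxed arrays, and both overlapped wild-type. Floxed differed from wild-type by 0.30 (SE 0.21, adjusted p = 0.593) and delta from floxed by -0.53 (SE 0.20, adjusted p = 0.731). With the sex covariate these values were 1.02 and -1.08. Bst2 (tetherin), which holds budding virions at the cell surface, differed by -0.03 in floxed and -0.07 in delta arrays.

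**Figure D4:**
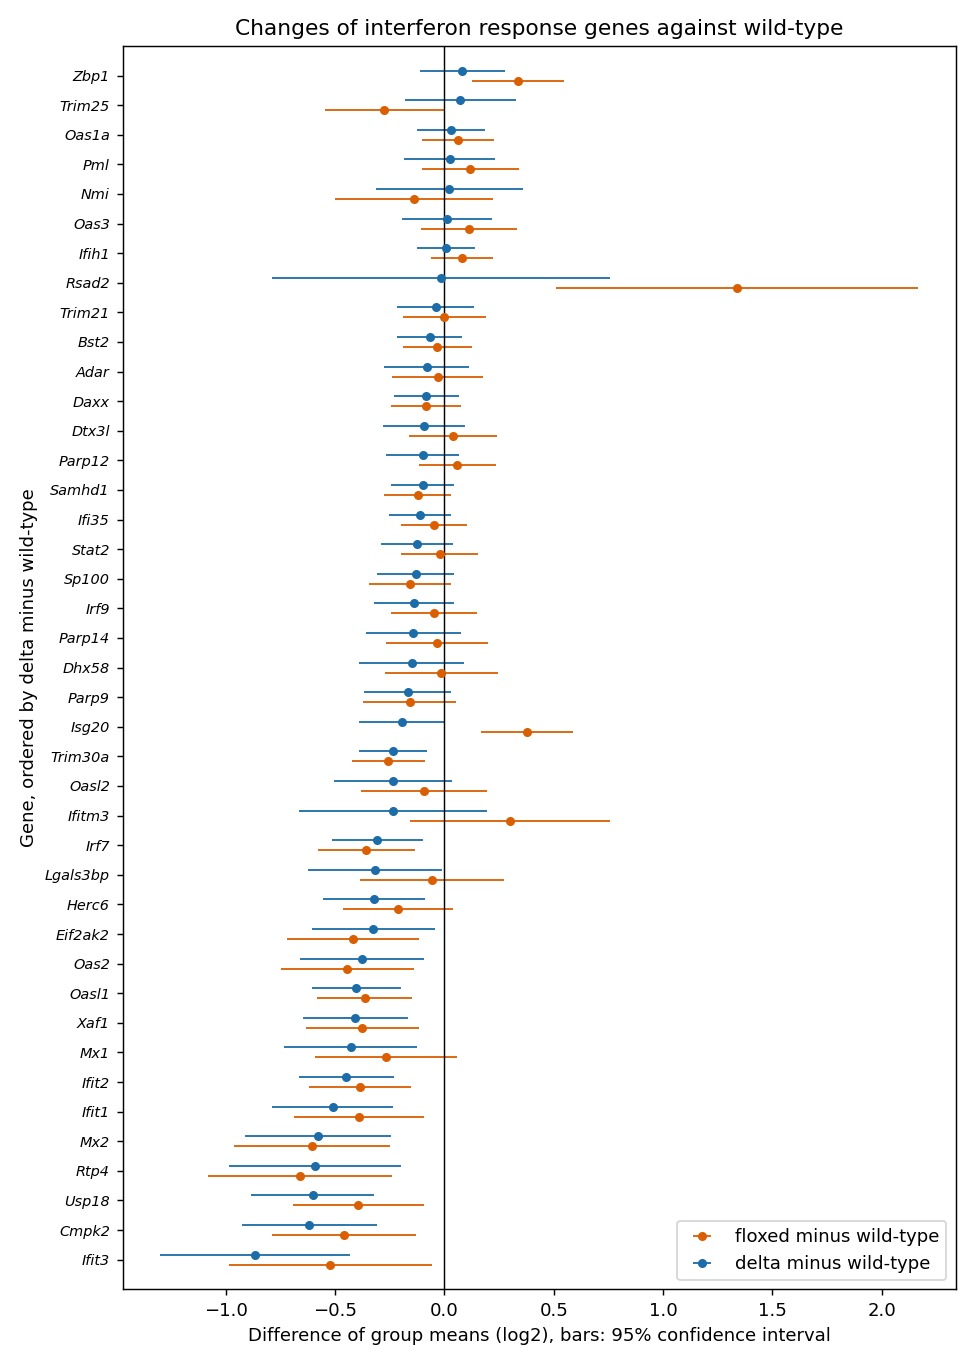
Difference of group means (log2) from wild-type for each of the 41 genes in floxed (orange) and delta arrays (blue), with 95% confidence intervals from the fit, ordered by the delta value. Most points lie left of 0 in both groups, and Rsad2 at 1.34 in floxed arrays is the point farthest to the right.

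The ubiquitin ligases and ADP-ribosyltransferases had smaller differences, with medians of -0.10 in floxed and -0.12 in delta arrays over 8 members. Trim30a, a TRIM protein that restrains NF-kappaB signalling, lay at 11.78, 11.71 and 11.65 in wild-type, 11.40, 11.50 and 11.46 in floxed, and 11.52, 11.61, 11.34 and 11.44 in delta arrays, with no overlap with wild-type in either group. It differed by -0.26 in floxed (adjusted p = 0.176) and -0.24 in delta arrays (adjusted p = 0.376). Herc6, the main ISG15 ligase in mice, differed by -0.21 and -0.32, and all its delta arrays lay below wild-type.
Trim25, a ligase that activates the RNA sensor RIG-I, had log2 levels of 10.12, 10.38 and 10.07 in wild-type, 9.86, 10.08 and 9.81 in floxed, and 10.09, 10.14, 10.53 and 10.30 in delta arrays. Its delta arrays all lay just above its floxed arrays, by 0.35 in the means (SE 0.12, adjusted p = 0.717). Parp9 and Dtx3l, which encode partners in 1 complex, and Parp14 lie side by side on chromosome 16. They differed by -0.16, 0.04 and -0.03 in floxed and by -0.17, -0.09 and -0.14 in delta arrays. Parp12 and Trim21 differed by at most 0.10 in size in either group.

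The levels of the nuclear body genes Pml, Sp100 and Daxx, which encode structural and chromatin-linked parts of PML bodies, overlapped between the groups. Pml lay at 11.56, 11.58 and 11.32 in wild-type, 11.57, 11.49 and 11.75 in floxed, and 11.59, 11.46, 11.35 and 11.65 in delta arrays, with differences of 0.12 in floxed and 0.02 in delta arrays. Sp100 differed by -0.16 and -0.13, and Daxx by -0.09 and -0.08. Rtp4, a chaperone of transmembrane receptors that is strongly interferon-induced, had the largest lower floxed difference. It lay at 8.57, 8.28 and 7.91 in wild-type, 7.56, 7.59 and 7.63 in floxed, and 7.52, 8.12, 7.72 and 7.30 in delta arrays. Floxed arrays were tightly grouped below wild-type, and delta 2 fell within its range. The difference was -0.66 in floxed (SE 0.19, 1.58-fold lower, adjusted p = 0.162) and -0.59 in delta arrays (SE 0.18, adjusted p = 0.376).
Xaf1, a pro-apoptotic partner of XIAP, lay at 8.84, 8.74 and 8.65 in wild-type, 8.29, 8.32 and 8.50 in floxed, and 8.32, 8.66, 8.18 and 8.19 in delta arrays. All transgenic arrays except delta 2 lay below wild-type. It differed by -0.38 in floxed (SE 0.12, adjusted p = 0.197) and by -0.41 in delta arrays (SE 0.11, adjusted p = 0.308). Ifi35 and Nmi, which encode binding partners of each other, differed by -0.05 and -0.14 in floxed and by -0.11 and 0.02 in delta arrays. Lgals3bp, a secreted glycoprotein, differed by -0.06 and -0.32.

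The values of both transgenic groups stand side by side here, since they share the wild-type arrays. Of the 13 members below wild-type without overlap in either group, 7 were so in both, 5 in floxed arrays alone and 1 (Herc6) in delta arrays alone. The 5 were Irf7, Ifit3, Eif2ak2, Rtp4 and Xaf1, and in each of them delta 2 was the delta array that reached the wild-type range. The difference was below 0 in both groups for 29 members and above 0 in both for 5.

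The delta arrays did not form 1 level. Delta 2 was the highest delta array in 28 of 41 members (68.3%), beside 20.1% of all genes, and the lowest in 2. Of the 41 members, 29 lay below all wild-type arrays in delta 1, 26 in delta 3 and 30 in delta 4, but 10 in delta 2. Of all genes, 28.4%, 26.9%, 28.6% and 31% did so in delta 1, 3, 4 and 2. On the floxed arrays 22, 21 and 19 members did, beside 29.4%, 34.1% and 35.8% of all genes. Without delta 2 the mean over the list differed from wild-type by -0.28 in delta arrays, and Cmpk2 and Ifit3 then passed the threshold. Delta 2 stood out by the values of these same members, so leaving it out was bound to lower the delta mean of the list. The 2 calls are therefore no separate test. Whether this array came from another transgenic line, animal or batch is not given in the labels.

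Markers of other cells differed between the groups beside these values. The T cell list (12 genes measured) had a mean log2 level of 6.39 to 6.63 in wild-type arrays, 7.20, 6.58 and 6.97 in floxed arrays and 6.42 to 6.75 in delta arrays. All 12 T cell genes had a higher floxed mean, and 0 were called. The summed intensity of 10 NK cell markers was 635 to 756 in wild-type and 1096 to 1383 in floxed arrays, that of 12 macrophage and monocyte markers 1664 to 1899 and 2190 to 2489, that of 7 conventional dendritic cell markers 614 to 655 and 896 to 1336, and that of 8 erythroid markers 1756 to 2745 and 2785 to 3707. In delta arrays these sums were 692 to 1136, 1940 to 3049, 667 to 1227 and 1387 to 2678, with the highest NK, macrophage and dendritic cell sums in delta 4. The macrophage and dendritic cell sums were higher through a few genes, with floxed differences of 1.91 for Adgre1, 1.12 for Itgam, 1.92 for Itgax and 1.02 for Flt3. Of the 12 macrophage genes 7 had a floxed and 8 a delta difference below 0 (medians -0.06 and -0.04), and of the 7 dendritic cell genes 4 and 5 (medians -0.04 and -0.01), with 0 called. The sum of 6 plasma cell markers was 3604 to 3727 in wild-type, 4020 to 4209 in floxed and 3979 to 4525 in delta arrays. In floxed arrays Jchain, the joining chain of secreted antibodies, rose by 1.64 (adjusted p = 0.0038), while Sdc1, the plasma cell surface marker CD138, fell by 0.51 (adjusted p = 0.0450). The sum of 9 neutrophil markers was 659 to 685 in wild-type arrays, 1166 in floxed 1 and 891 in delta 4, and 644 to 700.0 on the other transgenic arrays. For plasmacytoid dendritic cells, the main producers of interferon alpha, the ranges overlapped, with mean log2 levels of 8 markers at 7.38 to 7.56 in wild-type, 7.51 to 7.53 in floxed and 7.41 to 7.54 in delta arrays. No marker value was at 0. Rsad2 was 9.36 in floxed 2, whose T cell mean of 6.58 lay inside the wild-type range. The NK, macrophage and conventional dendritic cell sums of floxed 2 were 1096, 2489 and 1336, above wild-type, and its neutrophil sum was 644. Rsad2 was 8.99 in delta 4, the delta array with the highest T cell mean and a conventional dendritic cell sum of 1227. Whether such cells were present among the sorted cells was not tested, nor was any part of them in the Rsad2, Isg20 and Zbp1 values.

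The other genes of the pathway, in 6 lists, had median differences from -0.09 to 0.23 in floxed and from -0.07 to 0.11 in delta arrays. Of 13 measured ligand genes 0 were called, with medians of -0.09 in floxed and -0.07 in delta arrays. Ifnb1 lay at 5.50, 5.67 and 5.60 in wild-type and 5.34, 5.38 and 5.38 in floxed arrays, and Ifna2 differed by -0.37 in floxed arrays (adjusted p = 0.101). The mean level of the ligand list was 5.76 to 5.94 over the arrays, low values beside the 5.38 to 6.20 of Xist on arrays of male pattern. Whether the ligand signals exceed background was not tested. Of the 4 genes of the receptor and its kinases, 0 were called. Their medians were 0.14 and 0.07, and Ifnar2 lay at 10.21, 10.03 and 10.25 in wild-type and 10.25, 10.51 and 10.54 in floxed arrays, a difference of 0.27.

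Of 8 negative regulators, 1 was called. Socs3, an inhibitor of Jak kinases that STAT proteins induce, rose in floxed arrays by 0.92 (SE 0.15, adjusted p = 0.0232). Its log2 levels were 8.10, 8.33 and 8.15 in wild-type, 8.94, 9.35 and 9.05 in floxed, and 8.85, 8.49, 8.83 and 9.11 in delta arrays, with no overlap between wild-type and either transgenic group. The delta difference was 0.63 (adjusted p = 0.175). Ptpn1, a phosphatase of Jak2 and Tyk2, differed by 0.43 in floxed and 0.21 in delta arrays.

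Among 20 measured sensing and adaptor genes 0 were called, with medians of 0.06 in floxed and 0.01 in delta arrays. In 7 of the 20 every floxed array lay above every wild-type array (against 7.6% of all genes), and in 1 every floxed array lay below. Every delta array lay above in 1 of the 20 (against 3.75%). Myd88, the adaptor of most Toll-like receptors, differed by 0.34 in floxed arrays (adjusted p = 0.0909), the Toll-like receptor chaperone Unc93b1 by 0.23, Tlr3 by 0.61 and the kinase Ikbke by 0.35. Of 55 further interferon-stimulated genes 1 was called in floxed and 0 in delta arrays, with medians of 0.02 and -0.05. In floxed arrays 26 of the 55 had a difference below 0 (against 58.1% of all genes). Every floxed array lay below every wild-type array in 9 (against 9.13%) and above in 7 (against 7.6%). In delta arrays these counts were 36, 8 and 2 (against 56.4%, 5.5% and 3.75%). Floxed differences in this list ran from -1.51 to 1.28. Ifi209, a PYHIN protein of the interferon-inducible p200 family, fell by 0.73 in floxed arrays (adjusted p = 0.0171). Its levels were 12.07, 12.00 and 12.12 in wild-type, 11.37, 11.24 and 11.38 in floxed, and 11.70, 11.41, 11.71 and 11.93 in delta arrays. Its relatives Ifi213, Ifi203 and Ifi208 differed by -1.51, -0.55 and -1.21 in floxed arrays, with adjusted p = 0.0591, 0.0684 and 0.0857. These are related paralogs whose probe sets may share signal, which was not tested.

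Genes associated with interferon gamma, the type II interferon, had the highest list median. Of 25 measured, 0 were called in either comparison, but the median difference was 0.23 in floxed and 0.11 in delta arrays. In 10 of the 25 every floxed array lay above every wild-type array (against 7.6% of all genes), and in 1 every floxed array lay below. Every delta array lay above in 2 of the 25 (against 3.75%). Irf8 lay at 11.73, 11.76 and 11.64 in wild-type and 12.04, 12.09 and 11.96 in floxed arrays, a difference of 0.32 (adjusted p = 0.0684). The immunoproteasome subunit Psmb9 differed by 0.52, the GTPase Iigp1 by 0.57 and Irf1 by 0.35 in floxed arrays. The difference between the lists was not tested.

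**Figure D5:**
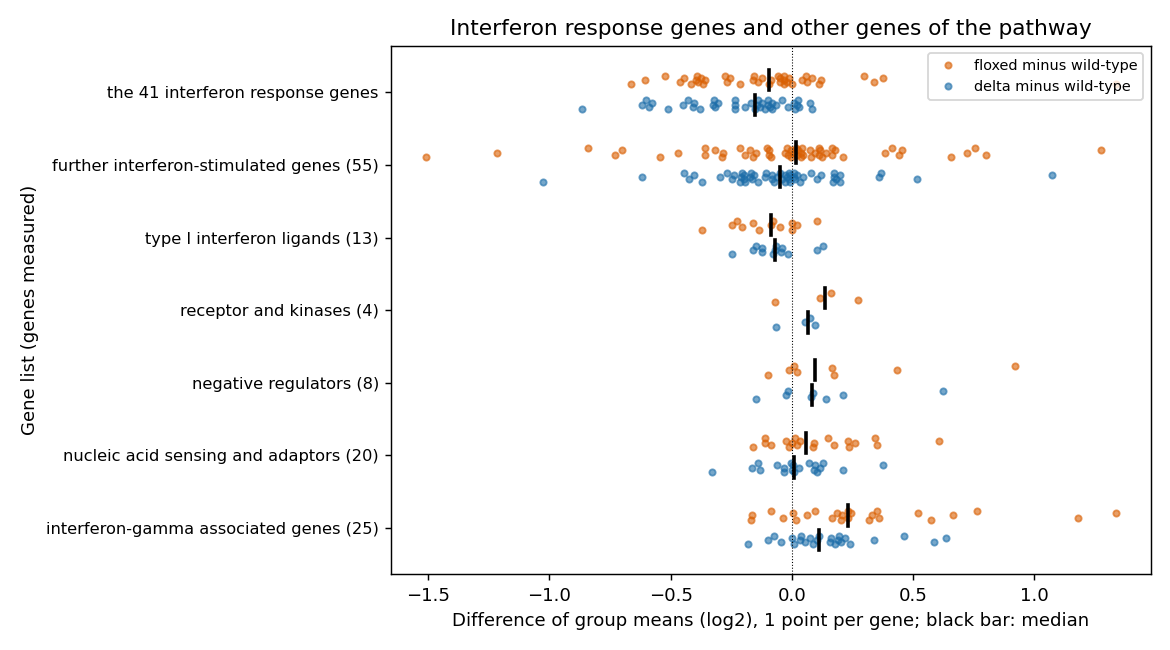
Difference of group means from wild-type (log2) for each measured gene of the 41 interferon response genes and of 6 further lists of the pathway, in floxed (orange) and delta arrays (blue), with the list median as a black bar. The median of the 41 genes lies below 0 in both groups, at -0.09 and -0.15, and that of the interferon-gamma associated genes above 0, at 0.23 and 0.11.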

How the data were processed

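The authors deposited RMA intensities per probe set on a linear scale, from 4.46 to 26808, of which log2 was taken. RMA is named per the submitters' processing notes, and its version, software and annotation build were not given in the sources used. Of 34760 probe sets, 21640 carried 1 symbol (platform annotation of the array), 1321 several and 11799 none; for 954 genes with several probe sets the one with the highest mean was used, which left 19937 genes. A level is not comparable between genes.

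Group means over all 10 arrays were fitted with limma 3.58.1 (lmFit, eBayes) in R 4.3.3, two-sided, with Benjamini-Hochberg adjustment over all 19937 genes and a threshold of 0.05. SD is between arrays. The procedure was checked on simulated data. The number of arrays limits the precision.

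The members, lists and naming rule were chosen with earlier results of these data known. Given by array are the regulators, Rsad2 and Cmpk2, the members with the smallest p (8 in each comparison with wild-type, 4 in delta against floxed) and the 4 farthest in the opposite direction; Eif2ak2 and Trim30a were added after their values were seen. Alternatives were other normalizations, probe set rules, variance priors, array weights, fits of 2 groups, a sex covariate, a fit blocked on replicate number and leaving arrays out singly.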

Additional observations from a re-analysis of the deposited data

Results flagged for a closer look

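In the delta group, delta 2 stood apart from the other 3 arrays in 3 values, by a gap larger than 95% of such groups give when the arrays vary alike; chance alone gives this in about 1 in 20 groups. Irf9 had a log2 level of 10.42 in delta 2 and of 10.13 to 10.16 in the other delta arrays. Eif2ak2 had 8.85 in delta 2 and 8.37 to 8.40 in the others. The mean over the 41 interferon response genes was 8.87 in delta 2 and 8.64 to 8.66 in the others. Irf9 and Eif2ak2 are part of that mean, so the 3 values are not independent. The number of values looked at by this rule is not given here, so the flags were not weighed against chance.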

How the results depend on the processing

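The counts of all genes called moved with the fit. In floxed against wild-type arrays (110 genes called) the count was 170 without dim genes, 208 with array weights, 193 with only the 2 groups fitted, 2 with the sex covariate and 18 to 240 leaving out each array in turn. In delta against wild-type arrays (15 called) it was 0 with every probe set kept, 9 with a trend and robust prior, 0 with only the 2 groups fitted, 3 with the sex covariate and 0 to 23 leaving out each array. In delta against floxed arrays (1 called) it was 3 with a trend and robust prior, 2 with only the 2 groups fitted and 1 to 10 leaving out each array. Members called in floxed against wild-type arrays numbered 1 (Rsad2) with only the 2 groups fitted and 0 to 1 leaving out each array (1 without delta 4); in delta against wild-type arrays they numbered 0 to 2 (Cmpk2 and Ifit3 without delta 2). The floxed difference of the list mean was -0.026 with the sex covariate. Members below wild-type without overlap numbered 12 to 19 in floxed and 8 to 18 in delta arrays leaving out each array (13.6% to 18% and 8.05% to 10.8% of all genes), a choice made after seeing the data; after renewed quantile normalization they were 13 and 9 (9.02% and 4.99% of all genes), and after centring on array medians 12 and 6 (7% and 4.5%). Replicate numbers did not pair the arrays: correlations of same-numbered arrays lay between -0.08 and 0.12. With a replicate block, in which delta 4 alone holds its number and adds nothing to the differences, 188, 6 and 2 genes were called in the 3 comparisons, and 1 member (Rsad2, adjusted p = 0.0347). For the members that the naming rule gives in each comparison, 650 values under alternatives kept their direction and side of the threshold, 5 passed it and 17 turned in sign, in members whose difference lay between -0.05 and 0.07. In floxed against wild-type arrays these were Irf9 (0.038 with the sex covariate) and Stat2 (-0.057 to 0.011 leaving out each array). In delta against wild-type arrays they were Pml (-0.0092 with array weights, -0.0011 with the sex covariate, -0.021 with the replicate block, -0.058 to 0.077 leaving out each array), Rsad2 (0.056 with array weights, 0.30 with the sex covariate, -0.35 to 0.3 leaving out each array), Trim25 (-0.014 to 0.17 leaving out each array) and Oas1a (-0.013 to 0.083 leaving out each array). Members outside this tally also turned in sign, some from larger differences. In floxed against wild-type arrays Parp9 went from -0.16 to 0.084 and Nmi from -0.14 to 0.15 with the sex covariate. The cause of these moves was not tested.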
